A study of Mus musculus with 6 samples.

Results

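A set of 10 genes that are commonly placed downstream of the transcription factor STAT3 and that act in cell survival or in the C/EBP group of transcription factors was followed in the uterus of control and *Gp130* ecKO females. The members were chosen by name and matched by symbol, and all 10 of them were found among the 56748 genes of the deposited tables. Earlier results of these data were known at that choice, so shares of members beside shares of all genes are descriptive. They comprise the PIM kinase genes *Pim1*, *Pim2* and *Pim3*, the growth regulator *Myc*, the survival genes *Mcl1* and *Bcl2l1*, the repressor *Bcl6*, the C/EBP genes *Cebpb* and *Cebpd*, and the early response gene *Ier3*.
Whole uteri were collected at 1600 h on day 4 of pregnancy, shortly before embryo attachment, from sexually mature females of the C57BL/6 background (C57BL/6J in the methods), with 3 uteri in each group. The *Gp130* ecKO females were *Ltf* iCre/+ with both *Gp130* alleles floxed. *Ltf*-iCre drives recombination mainly in the uterine epithelium of adult females, so that stroma and muscle keep *Gp130*. The paper cautions that some immune cells, among them neutrophils and macrophages, also express *Ltf*, so *Gp130* deletion can affect them too. The labels call the control wild type, and the methods of the study give control females as either floxed for *Gp130* without iCre or wild type. All *Gp130* ecKO females carry iCre in 1 *Ltf* allele and no control does, so the effects of iCre and of *Gp130* loss cannot be told apart.
The total expected count, the number of reads that RSEM assigned to genes, ranged from 13960748 to 25906443 per uterus. The lowest total belonged to control 3. Over all genes tested, log2 CPM of control 2 correlated at r = 0.958 and 0.946 with controls 1 and 3, and at 0.946, 0.967 and 0.963 with *Gp130* ecKO 1, 2 and 3, so control 2 was closer to *Gp130* ecKO 2 and 3 than to either control. *Il6st*, the gene encoding Gp130, had between 452 and 678 CPM in the control and between 349.8 and 388 CPM in *Gp130* ecKO, without overlap, which gave a log2 fold change of −0.68 (quasi-likelihood adjusted p = 0.120). For *Il6st*, the adjusted p was 0.103 in edgeR's exact test and 0.0346 in DESeq2. CPM is the usual count scaled to library size, here after TMM adjustment of the library sizes. Markers of uterine epithelium, stroma, muscle and vessels were all detected, with no marker of these lists at 0 in all uteri. Because the RNA came from whole uteri, fewer cells of a type and less RNA per cell cannot be told apart.

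Gp130 is the shared signalling receptor of leukemia inhibitory factor and other interleukin 6 type cytokines. Ligand binding activates Janus kinases on its cytoplasmic tail, and these phosphorylate STAT3, which dimerizes, enters the nucleus and binds palindromic DNA sites. In the mouse uterus this pathway is required in the epithelium for embryo attachment. PIM kinases are constitutively active serine/threonine kinases whose abundance is set largely by transcription. MCL1 and BCL-XL, the long product of *Bcl2l1*, hold back the pore-forming proteins of mitochondrial apoptosis, and C/EBPβ is required in the uterus for decidualization.

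The lower members in *Gp130* ecKO were led by *Cebpd*, *Pim1*, *Cebpb* and *Myc*, each with a log2 fold change below −1, and *Ier3* was the member with the highest ratio, at a log2 fold change of 1.34. Control and *Gp130* ecKO uteri were fully separated in CPM for 8 of the 10 members, 6 of them lower and 2 higher in *Gp130* ecKO. Among all 16605 genes tested, 31.3% did not overlap, with 15.6% lower and 15.7% higher. With edgeR's quasi-likelihood test at a false discovery rate (FDR) below 0.05 and more than 2-fold change, 0 of the 10 members were called, and 0.157% of all genes tested were called (0.0301% lower and 0.126% higher). At an unadjusted p below 0.05 there were 6 members, 5 lower and 1 higher, where the share of all genes tested was 25% (12.9% lower and 12.1% higher). edgeR's exact test and DESeq2 both called *Pim1*, *Myc*, *Cebpb*, *Cebpd* and *Ier3* by the same thresholds, where they called 7.54% and 9.31% of all genes tested (3.79% and 4.9% lower, and 4.41% higher in DESeq2). A log2 fold change below 0 was found for 7 members and for 52.9% of all genes tested. The median over the 10 members was −0.50, and −0.05 over all genes tested. For single values, the smallest two-sided p that exact permutation of 3 against 3 uteri allows is 0.1. The labels number the uteri without saying more about their origin, so p-values measure only the spread between these samples.

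**Figure D1:**
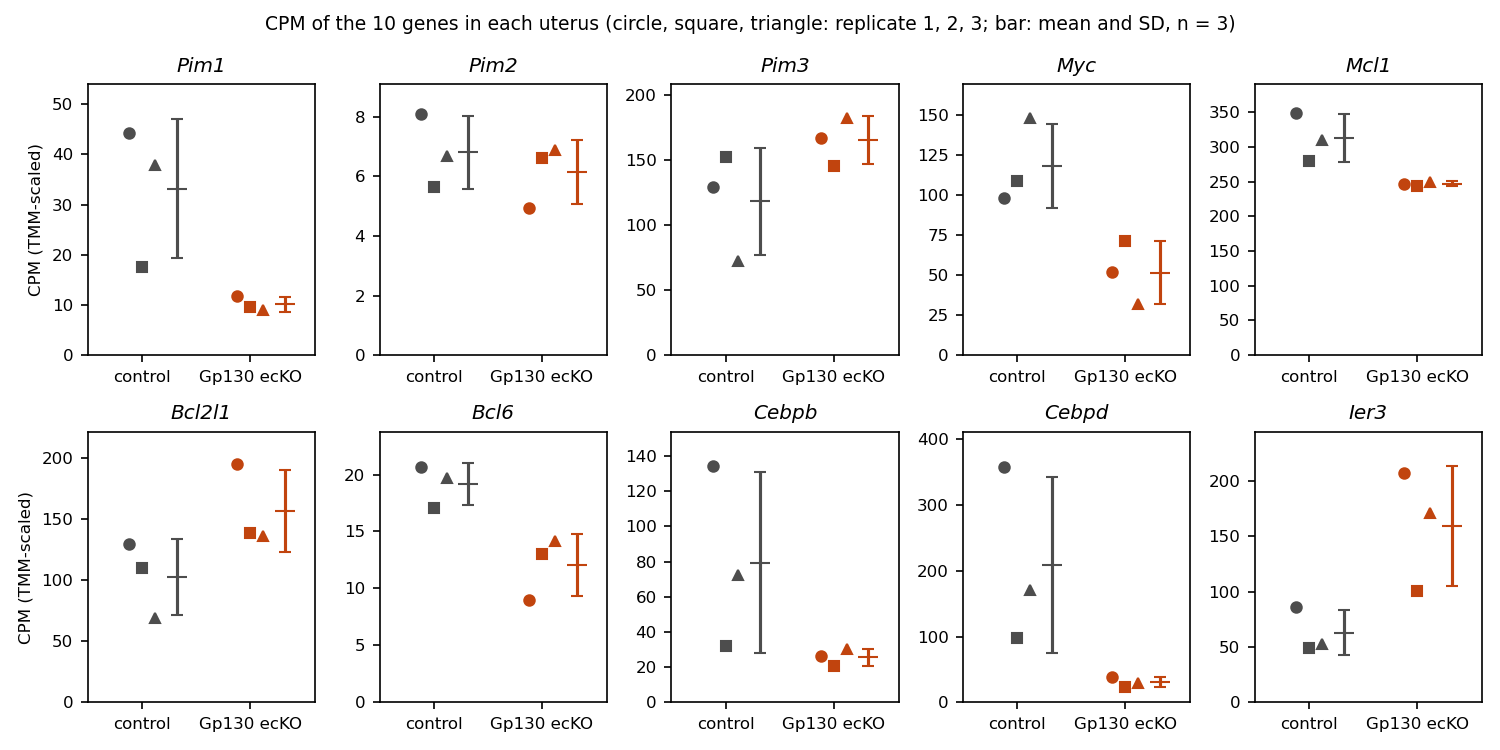
TMM-scaled CPM (linear axis from 0, a separate scale for each gene) of the 10 genes in the 3 control and the 3 *Gp130* ecKO uteri. Points are uteri and bars are the mean and SD (n = 3). *Cebpd*, *Pim1*, *Cebpb*, *Myc*, *Bcl6* and *Mcl1* were lower in every *Gp130* ecKO uterus than in any control uterus, *Ier3* and *Bcl2l1* were higher, and *Pim2* and *Pim3* overlapped.

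**Figure D2:**
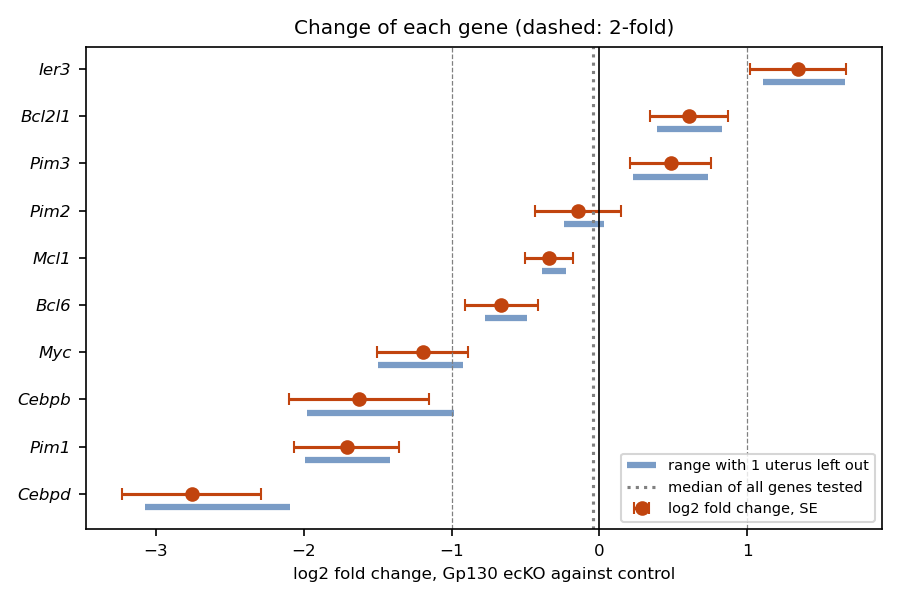
Log2 fold change of each gene in *Gp130* ecKO against the control with its standard error (orange), and the range of the log2 fold change when 1 uterus was left out at a time (blue). Of the 10 genes, *Pim2* is the one whose range crosses 0.

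Both C/EBP genes were lower in *Gp130* ecKO without overlap, and *Cebpd* had the lowest ratio of the set. They encode basic leucine zipper proteins that bind DNA as dimers, and both are intronless, with 1 exon each. *Cebpd* (ENSMUSG00000071637, chromosome 16 of GRCm39, 15705150 to 15708895) encodes C/EBPδ, an early factor of acute phase and inflammatory responses. It measured 357, 98.0 and 171 CPM across control uteri 1 to 3, while *Gp130* ecKO uteri 1 to 3 measured 38.5, 24.0 and 29.9 CPM. The lowest control uterus, control 2, was still above all *Gp130* ecKO uteri. The log2 fold change was −2.76 (standard error, SE, 0.47, quasi-likelihood adjusted p = 0.0616). The mean in *Gp130* ecKO was 14.8% of the control mean. Without control 1, the highest control, the log2 fold change was −2.10, and without control 2 it was −3.07. The adjusted p was 9.78e-06 in edgeR's exact test and 1.08e-06 in DESeq2, and over the 12 alternative settings it ranged from 1.08e-06 to 0.177.
*Cebpb* (ENSMUSG00000056501, chromosome 2, 167530835 to 167532338) measured 134, 31.9 and 72.2 CPM across control uteri 1 to 3, while *Gp130* ecKO uteri 1 to 3 measured 26.1, 20.7 and 30.3 CPM. The groups did not overlap, but control 2 lay just above *Gp130* ecKO 3. On the log2 scale the fold change was −1.63 (SE 0.47, quasi-likelihood adjusted p = 0.112), and −0.98 without control 1. edgeR's exact test gave an adjusted p of 0.0207, with a range from 0.0144 to 0.291 over the 12 alternatives.
The spread between control uteri was wide for both genes, with coefficients of variation of 64.0% for *Cebpd* and 64.9% for *Cebpb*, against 23.6% and 18.7% in *Gp130* ecKO. Control 1 was highest and control 2 lowest for both. On the scale of TPM, which is per transcript length, the sum of *Cebpb* and *Cebpd* was 236, 63.6 and 135 across control uteri 1 to 3, while *Gp130* ecKO uteri 1 to 3 reached 40.0, 31.7 and 36.4. The sum in *Gp130* ecKO was 0.249 times the control mean (exact two-sided permutation test, p = 0.1, the smallest possible).
The ratio of *Cebpb* to *Cebpd* TPM within a uterus was 0.963, 0.834 and 1.081 in controls 1, 2 and 3, so the paralogues were near parity there. It was 1.75, 2.21 and 2.57 in *Gp130* ecKO 1, 2 and 3. The mean log2 ratio differed by 1.17 between the groups (exact two-sided permutation test, p = 0.1, the smallest possible), in a comparison chosen after the values were seen. *Cebpd* was thus lower relative to *Cebpb* in each *Gp130* ecKO uterus, including against control 2.
Both C/EBP genes overlap genes on the opposite strand. Of the stretches of 75 bases in *Cebpb* transcripts, 16.7% also occur on the opposite strand in *Peds1*, and 13.1% of those in *Cebpd* in *Spidr*. *Peds1* had between 47.2 and 63.9 CPM in the control and between 74.8 and 86.1 CPM in *Gp130* ecKO, and *Spidr* between 13.3 and 18.4 CPM and between 13.3 and 20.8 CPM. *Peds1* was higher in all *Gp130* ecKO uteri and *Spidr* overlapped. The libraries were strand-specific, the sources used here do not state whether the counting used strand, and the share of opposite-strand reads in the counts was not tested.

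Of the PIM kinase genes, *Pim1* was lower in *Gp130* ecKO without overlap, while *Pim2* and *Pim3* overlapped between the groups. *Pim1* (ENSMUSG00000024014, chromosome 17, 29709581 to 29715086) measured 44.2, 17.5 and 37.8 CPM across control uteri 1 to 3, while *Gp130* ecKO uteri 1 to 3 measured 11.8, 9.61 and 8.995 CPM. All *Gp130* ecKO uteri lay below control 2, the lowest of its group. This was a log2 fold change of −1.71 (SE 0.35, quasi-likelihood adjusted p = 0.0737), and the mean in *Gp130* ecKO was 30.5% of the control mean. DESeq2 gave an adjusted p of 0.000589, with a range from 0.000589 to 0.204 over the 12 alternatives. *Pim1* transcripts overlap the opposite-strand genes *Gm17172* and *Gm26885*, which had at most 6 counts in any uterus.
*Pim3* (ENSMUSG00000035828, chromosome 15, 88746177 to 88749929) measured 129.5, 152 and 72.4 CPM across control uteri 1 to 3, while *Gp130* ecKO uteri 1 to 3 measured 167, 146 and 182 CPM. Control 2 was above *Gp130* ecKO 2, so the groups overlapped, and the log2 fold change of 0.48 (SE 0.27, quasi-likelihood adjusted p = 0.307) did not pass the threshold. *Pim2* (ENSMUSG00000031155, chromosome X, 7744501 to 7749689) was the weakest member, with 8.09, 5.63 and 6.67 CPM across control uteri 1 to 3, while *Gp130* ecKO uteri 1 to 3 measured 4.93, 6.61 and 6.88 CPM. Its groups overlapped (log2 fold change −0.15, SE 0.29, quasi-likelihood adjusted p = 0.774).
Per length, *Pim3* held most of the PIM transcripts. It made up 79.3%, 90.3% and 67.5% of the summed PIM TPM across control uteri 1 to 3, while *Gp130* ecKO uteri 1 to 3 reached 93.4%, 91.4% and 94.4%. *Pim1* made up 17.3%, 7.38% and 28.4% in the control and 4.45%, 5.19% and 3.06% in *Gp130* ecKO. The summed TPM of the 3 genes was 151, 159 and 113.5 across control uteri 1 to 3, while *Gp130* ecKO uteri 1 to 3 reached 161, 150.1 and 173. The sums overlapped between the groups, with a ratio of means of 1.14 (exact two-sided permutation test, p = 0.3). The mean sum in *Gp130* ecKO was thus not below that of the control, although *Pim1* was. The mean log2 ratio of *Pim1* to *Pim3* TPM was −2.35 ± 1.19 (SD, n = 3) in the control and −4.49 ± 0.41 (SD, n = 3) in *Gp130* ecKO, without overlap (exact two-sided permutation test, p = 0.1, the smallest possible), again chosen after the values were seen.

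**Figure D3:**
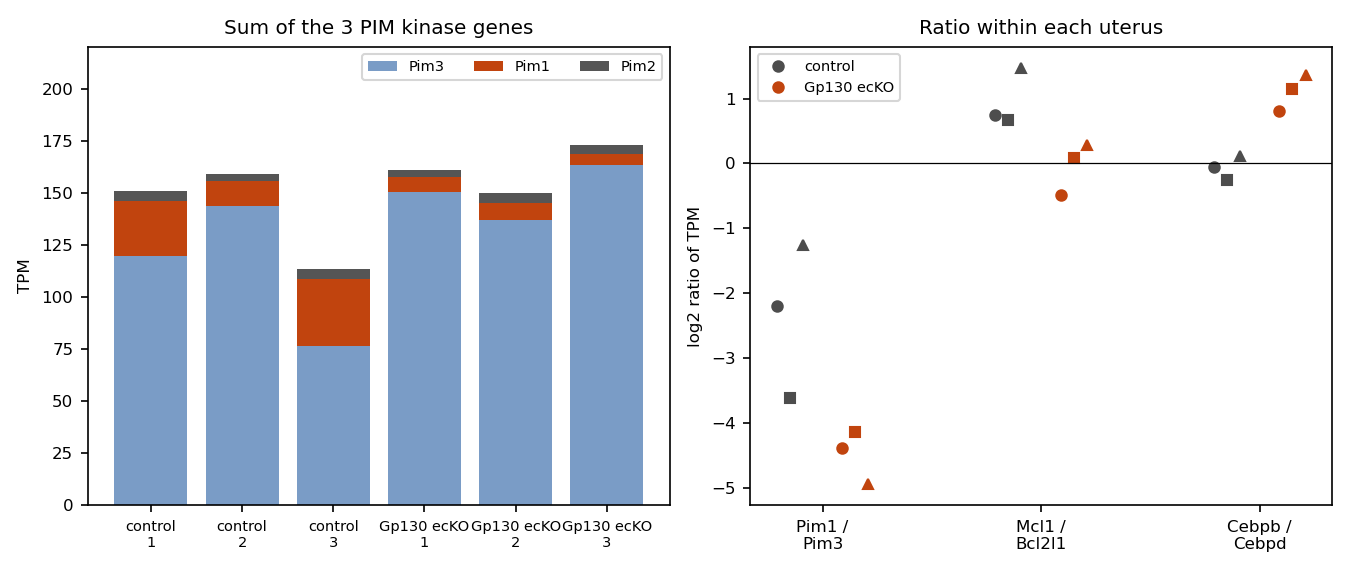
Left, TPM of *Pim3*, *Pim1* and *Pim2* stacked for each uterus (linear axis from 0). Right, log2 ratio of the TPM of 2 genes within each uterus, where circles, squares and triangles are replicates 1, 2 and 3. The PIM sums overlapped between the groups, with 113.5 to 159 TPM in the control and 150.1 to 173 TPM in *Gp130* ecKO, and each of the 3 ratios was separated.

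*Myc* and *Bcl6* encode transcription factors. *Myc* (ENSMUSG00000022346, chromosome 15, 61857227 to 61862223), a driver of growth and ribosome production, measured 98.3, 109 and 148 CPM across control uteri 1 to 3, while *Gp130* ecKO uteri 1 to 3 measured 51.8, 71.3 and 31.8 CPM. The groups did not overlap, and here control 2 lay with the other controls. The log2 fold change was −1.20 (SE 0.31, quasi-likelihood adjusted p = 0.0956), between −1.50 and −0.92 with 1 uterus left out at a time. edgeR's exact test gave an adjusted p of 0.0164, with a range from 0.0111 to 0.268 over the 12 alternatives.
*Bcl6* (ENSMUSG00000022508, chromosome 16, 23783802 to 23807602) encodes a zinc finger repressor best known from germinal centre B cells. It measured 20.7, 17.1 and 19.7 CPM across control uteri 1 to 3, while *Gp130* ecKO uteri 1 to 3 measured 8.997, 13.0 and 14.2 CPM. The control values were the closest together of any member, with a coefficient of variation of 9.67%, and all *Gp130* ecKO values lay below them. *Bcl6* had a log2 fold change of −0.66 (SE 0.25, quasi-likelihood adjusted p = 0.158), under 2-fold, and the lowest adjusted p over the 12 alternatives was 0.0907.
Promoters were compared for the letters TTCNNNGAA, the palindrome of STAT dimers, which reads the same on both strands. The RefSeq table (GRCm38.p6) held promoters for 8 members, with 12 start sites, and the 250 bases before each start of that table were searched. *Myc* and *Cebpd* had no entry. The starts of the table can lie inside the gene coordinates given here. The *Pim3* window, 88746147 to 88746396, lay mostly after the gene start at 88746177. Windows of *Pim1*, *Pim2*, *Mcl1*, *Bcl2l1* and *Ier3* also ran past their gene start. *Bcl6* was the 1 member with a match, at both of its starts, whereas 7.02% of all 32851 promoters in the table held at least 1. The upstream start had 1 match and the downstream start 3, which 0.0274% of all promoters reached. This window was singled out from the 12 after the search, so that share cannot be read as a chance for it, and over the members 2 of 12 windows held a match. Of these 3, 2 also had the stricter form TTCCNGGAA, of which 0.0213% of all promoters held at least 2 and 0.913% at least 1. The downstream window lies inside the coordinates of the gene. Both windows, placed on GRCm39 by exact match and on the minus strand, are given with the *Cebpb* promoter, a window without a match and with 81.6% G and C, for comparison. Capitals mark TTCNNNGAA.
*Bcl6* upstream start, chr16:23807603-23807852, minus strand: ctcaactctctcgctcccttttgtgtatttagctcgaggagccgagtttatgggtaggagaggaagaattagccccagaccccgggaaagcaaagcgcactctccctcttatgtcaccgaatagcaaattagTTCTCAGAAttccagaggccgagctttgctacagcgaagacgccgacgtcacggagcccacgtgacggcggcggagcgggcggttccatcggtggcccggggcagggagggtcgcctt
*Bcl6* downstream start, chr16:23800034-23800283, minus strand: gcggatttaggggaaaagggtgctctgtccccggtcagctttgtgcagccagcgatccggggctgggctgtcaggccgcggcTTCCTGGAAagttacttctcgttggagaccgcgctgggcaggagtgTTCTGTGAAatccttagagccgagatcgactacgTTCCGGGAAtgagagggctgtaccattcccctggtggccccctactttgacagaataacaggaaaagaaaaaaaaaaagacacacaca
*Cebpb*, chr2:167530585-167530834, plus strand: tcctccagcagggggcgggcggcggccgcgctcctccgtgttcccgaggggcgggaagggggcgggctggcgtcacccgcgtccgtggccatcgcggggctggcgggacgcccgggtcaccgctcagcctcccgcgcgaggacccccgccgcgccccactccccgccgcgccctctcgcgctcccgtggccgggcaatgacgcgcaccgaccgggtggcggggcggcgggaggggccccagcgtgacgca
The matches begin 118 bases before the upstream start (TTCTCAGAA) and 168, 122 and 88 bases before the downstream start (TTCCTGGAA, TTCTGTGAA and TTCCGGGAA). They are letters in a window and not measured binding. The windows of *Pim1*, *Pim2*, *Pim3*, *Mcl1*, *Bcl2l1*, *Cebpb* and *Ier3* did not contain these letters, and sequence further upstream was not searched. The palindromes TTGCGCAA, of C/EBP dimers, and TGACGTCA, of CREB, were not found in any of the 12 windows, and 0.164% and 1.55% of all promoters held them.

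The 2 survival genes differed in direction. *Mcl1* (ENSMUSG00000038612, chromosome 3, 95566026 to 95570487) measured 349, 279 and 310.1 CPM across control uteri 1 to 3, while *Gp130* ecKO uteri 1 to 3 measured 247, 243 and 250.2 CPM. In CPM the *Gp130* ecKO uteri were nearly equal, with a coefficient of variation of 1.36%, and all below the control uteri. Its log2 fold change was −0.34 (SE 0.16, quasi-likelihood adjusted p = 0.233). *Bcl2l1* (ENSMUSG00000007659, chromosome 2, 152622582 to 152673655) measured 129.6, 109.5 and 69.0 CPM across control uteri 1 to 3, while *Gp130* ecKO uteri 1 to 3 measured 195, 138 and 136 CPM. No control uterus reached the lowest *Gp130* ecKO uterus, with a log2 fold change of 0.61 (SE 0.27, quasi-likelihood adjusted p = 0.209). Neither gene passed the threshold under any of the 12 alternatives.
On the TPM scale the groups overlapped for both genes. *Mcl1* was less even there, with 103, 110 and 92.5 TPM in *Gp130* ecKO uteri 1 to 3. The sum of *Mcl1* and *Bcl2l1* was 187 ± 20.4 TPM (SD, n = 3) in the control and 209 ± 38.8 TPM (SD, n = 3) in *Gp130* ecKO (exact two-sided permutation test, p = 0.6). The ratio of *Mcl1* to *Bcl2l1* within a uterus was 1.68, 1.59 and 2.78 across control uteri 1 to 3, while *Gp130* ecKO uteri 1 to 3 reached 0.717, 1.06 and 1.21. The ratio was thus lower in every *Gp130* ecKO uterus, with a difference of −1.002 on the log2 scale (exact two-sided permutation test, p = 0.1, the smallest possible), a comparison also chosen after the values were seen. The gene tables do not separate the long and short products of these genes, which act in opposite ways.

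*Ier3* (ENSMUSG00000003541, chromosome 17, 36132568 to 36133815), a short early response gene of 2 exons whose product modulates apoptosis, had a higher ratio than any gene of the IER family list. It measured 86.0, 49.4 and 53.0 CPM across control uteri 1 to 3, while *Gp130* ecKO uteri 1 to 3 measured 207, 100.3 and 171 CPM. Each *Gp130* ecKO uterus was above control 1, the highest control. The log2 fold change was 1.34 (SE 0.32, quasi-likelihood adjusted p = 0.0897), between 1.11 without *Gp130* ecKO 1 and 1.66 without control 1. DESeq2 gave an adjusted p of 0.00500, with a range from 0.00500 to 0.260 over the 12 alternatives. Of the stretches of 75 bases in *Ier3* transcripts, 30.4% also occur on the opposite strand in *Gm66231*, which was not found among the deposited genes. The same holds for the opposite-strand genes that share 0.99% of such stretches with *Myc*, 6.42% with *Bcl2l1* and 6.91% with *Bcl6*.
The IER family list (*Ier2*, *Ier5*, *Ier5l* and *Ier3ip1*, the last encoding a protein that interacts with IER3 and no family member) had 4 genes tested and 0 called by the quasi-likelihood test, with 3 lower and 0 higher at an unadjusted p below 0.05, and DESeq2 called 2 of them, both lower. Of all genes tested, 12.9% were lower and 12.1% higher at that p, and DESeq2 called 4.9% lower. Its median log2 fold change was −0.999, with *Ier3ip1* at −0.03, while that of *Ier3* was positive. *Ier5l* had a log2 fold change of −2.09 (quasi-likelihood adjusted p = 0.0777) and *Ier5* of −1.32 (quasi-likelihood adjusted p = 0.0827). Without control 3, the log2 fold change of *Ier5l* was −1.49.

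In TPM, the control order was *Mcl1* (123), *Pim3* (113), *Myc* (80.6), *Ier3* (76.8), *Cebpd* (73.1), *Cebpb* (71.5), *Bcl2l1* (64.3), *Pim1* (23.4), *Bcl6* (7.23) and *Pim2* (4.51). Neighbours from *Mcl1* to *Bcl2l1* overlapped over the control uteri, and the steps from *Bcl2l1* to *Pim1*, from *Pim1* to *Bcl6* and from *Bcl6* to *Pim2* did not. In *Gp130* ecKO the order was *Ier3* (205), *Pim3* (150.2), *Bcl2l1* (108), *Mcl1* (102), *Myc* (37.4), *Cebpb* (24.5), *Cebpd* (11.5), *Pim1* (6.75), *Bcl6* (4.80) and *Pim2* (4.33). There the steps from *Mcl1* to *Myc*, from *Cebpb* to *Cebpd* and from *Cebpd* to *Pim1* were without overlap. *Ier3* thus stood in the fourth place in the control and the first in *Gp130* ecKO, and *Cebpd* in the fifth and the seventh. In TPM, 6 of the 10 members did not overlap between the groups, against 8 in CPM, the exceptions being *Mcl1* and *Bcl2l1*. Of all genes tested, 28.7% did not overlap in TPM and 31.3% in CPM.

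**Figure D4:**
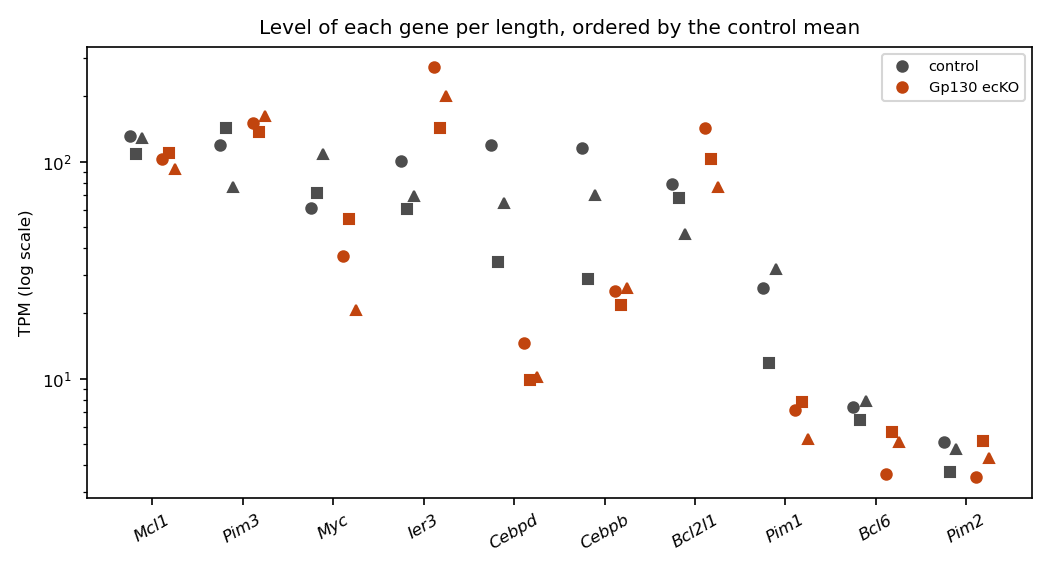
TPM (log axis) of each gene in the 3 control uteri (grey) and the 3 *Gp130* ecKO uteri (orange), ordered by the control mean. Circles, squares and triangles are replicates 1, 2 and 3. *Pim2* and *Bcl6* have the lowest means in both groups, and *Ier3* has the highest mean in *Gp130* ecKO, with 143 to 272 TPM. In *Gp130* ecKO the points of *Bcl6* overlap those of *Pim1*, and the points of *Ier3* overlap those of *Pim3*.

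Other genes of the same pathways were taken from lists, in which *Bcl3* was the 1 gene called by the quasi-likelihood test. For reading these lists, the shares of all genes tested were 0.157% called by the quasi-likelihood test, 12.9% lower and 12.1% higher at an unadjusted p below 0.05, and 4.9% lower and 4.41% higher by DESeq2, with a median log2 fold change of −0.05. Among 16 other STAT3 target genes, 1 was called lower, and 10 were lower and 1 higher at an unadjusted p below 0.05, with a median log2 fold change of −1.20. DESeq2 called 7 lower and 1 higher. *Bcl3*, a nuclear partner of NF-κB, had a log2 fold change of −3.69 (quasi-likelihood adjusted p = 0.0334). Its call was lost without control 1, control 3 or *Gp130* ecKO 1, 2 or 3, with log2 fold changes of −3.98 to −3.39 and adjusted p of 0.0577 to 0.124. The C/EBP family list without the members had 4 genes tested, all with a negative log2 fold change (median −0.56), and 2 with an unadjusted p below 0.05. DESeq2 called 1 of them lower. *Cebpa*, another C/EBP activator, had a log2 fold change of −2.02 (quasi-likelihood adjusted p = 0.117), and *Cebpz* of −0.45 (quasi-likelihood adjusted p = 0.195). Without control 1, the log2 fold change of *Cebpa* was −0.96.
The list of 20 tested BCL2 family and inhibitor of apoptosis genes had 2 higher and 3 lower at an unadjusted p below 0.05, the same share as the 25% of all genes tested, and a median log2 fold change of −0.16. *Xiap*, a caspase inhibitor, had a log2 fold change of 0.83 (quasi-likelihood adjusted p = 0.0676), and *Bok*, a pro-apoptotic family member, of −1.10 (quasi-likelihood adjusted p = 0.0737). In the MYC network, with 11 genes tested, 1 was higher and 1 lower by the same p, and the median was 0.21. *Mycl*, a relative of *Myc*, had a log2 fold change of 1.47 (quasi-likelihood adjusted p = 0.113), opposite to *Myc*, and *Mxd3* of −1.24 (quasi-likelihood adjusted p = 0.195). Of 5 *Bcl6* relatives and corepressors, 1 was higher and 1 lower, with a median of −0.01. *Bcl6b*, the closest paralogue, had a log2 fold change of −1.61 (quasi-likelihood adjusted p = 0.0635), and *Ncor1* of 0.63 (quasi-likelihood adjusted p = 0.129). Of 11 PIM substrates and partners, 1 was higher and 4 lower, with a median of −0.27. *Eif4ebp1*, a translation repressor, had a log2 fold change of −1.34 (quasi-likelihood adjusted p = 0.0833), and *Foxo1* of −1.02 (quasi-likelihood adjusted p = 0.0929). Without control 2, where 5.08% of all genes tested were called, the quasi-likelihood adjusted p was 0.0382 for *Xiap* (log2 fold change 0.94, under 2-fold). It was 0.0362 for *Ier5l*, 0.0279 for *Eif4ebp1* and 0.0270 for *Foxo1*, and also below 0.05 for some list genes not named here. It stayed above 0.05 for *Bcl6b* (0.0501), *Cebpa* (0.0584), *Mycl* (0.0598), *Bok* (0.0599) and *Ier5* (0.0703). With any other uterus left out, it was 0.124 or more for *Xiap*, *Ier5l*, *Eif4ebp1* and *Foxo1*. Leaving out uteri for the list genes was chosen after seeing the data. DESeq2 called 1 gene lower in the BCL2 family list, 1 higher in the MYC network, 1 lower among the *Bcl6* relatives and 3 lower among the PIM partners. The lists share some genes with each other.

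**Figure D5:**
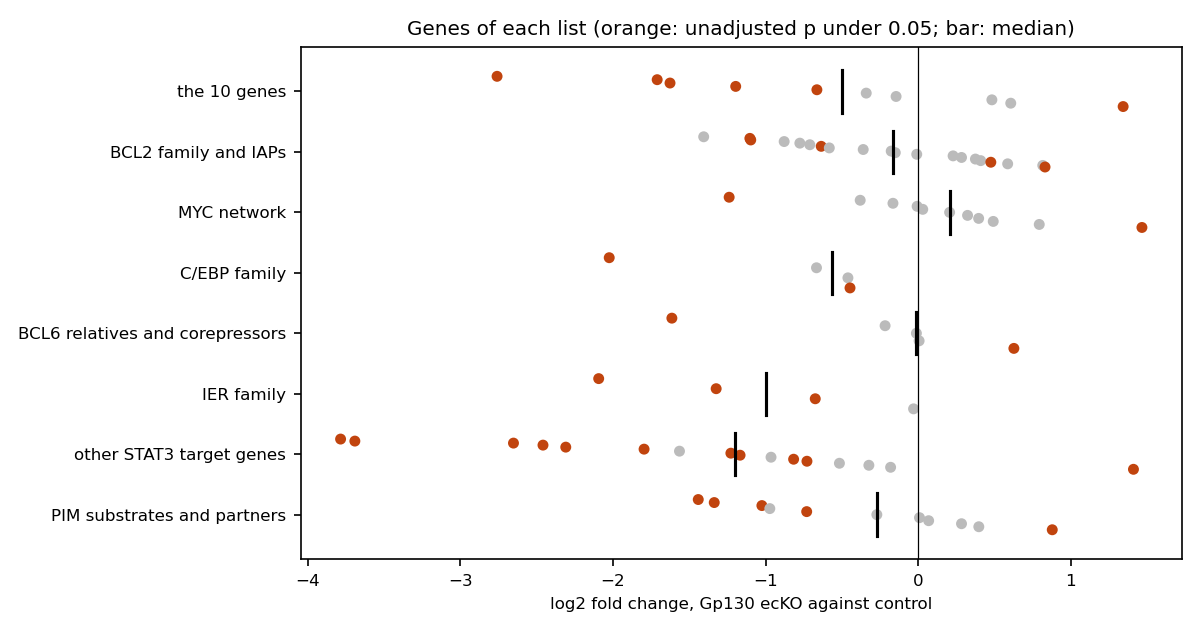
Log2 fold change in *Gp130* ecKO against the control for the 10 genes and for the tested genes of each pathway list. Orange points have an unadjusted p below 0.05 in edgeR's quasi-likelihood test, grey points do not, and bars are medians. Among these pathway lists, the other STAT3 target genes have the lowest median, −1.20, and the MYC network the highest, 0.21.

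The gene most like *Cebpd*, the member with the lowest p, among 10251 other genes with a mean of at least 10 CPM was *Tyro3*, a receptor tyrosine kinase gene. Likeness was the root mean square difference between centred log2 CPM over the 6 uteri, which was 0.25 for *Tyro3*, 0.32 for *Me3* and 0.32 for *Prss23*. *Tyro3* measured 83.6, 25.03 and 46.1 CPM across control uteri 1 to 3, while *Gp130* ecKO uteri 1 to 3 measured 13.6, 6.58 and 11.0 CPM.

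Markers of cell types differed between the groups beside these results. The summed CPM of 8 epithelial markers was 2151 to 3874 in the control and 5311 to 6875 in *Gp130* ecKO. Of the 8, 7 were higher in log2 fold change, with *Krt19* (2.19), *Krt8* (1.32) and *Cdh1* (0.66) at an unadjusted p below 0.05. *Epcam* was lower (−0.19). The paper found KRT8 and CDH1 protein raised in the epithelium of *Gp130* ecKO. How far the sum follows the number of epithelial cells was not tested. The summed CPM of 6 endometrial stroma markers was 2903 to 3829 in the control and 1720 to 2399 in *Gp130* ecKO. All 6 were lower in log2 fold change, 3 of them at an unadjusted p below 0.05. The 5 neutrophil markers summed to 5.33 to 8.64 CPM and 1.13 to 4.31 CPM, again without overlap, with 4 lower (3 at that p) and *Ly6g* higher in log2 fold change (1.08). The sums of 5 endothelial markers (335 to 857 and 193 to 350.4 CPM), 6 macrophage markers (150.2 to 219 and 75.5 to 166 CPM) and 6 smooth muscle markers (568 to 2781 and 475 to 2994 CPM) overlapped, although 4 of the 5 endothelial markers were lower at an unadjusted p below 0.05. Those of lymphocyte and blood markers overlapped too. Of 11 genes of immediate early response and tissue handling, 7 were lower and 1 higher at that p, with summed CPM of 492 to 847 in the control and 394 to 638 in *Gp130* ecKO. The part of these differences in the values of the 10 genes was not tested.
Control 2 stood nearer to the *Gp130* ecKO mean than to controls 1 and 3 for *Pim1*, *Pim2*, *Pim3*, *Mcl1* and *Cebpb* on the log2 scale, and nearer to the other controls for the remaining 5 members. Without control 2 the quasi-likelihood test called *Pim1*, *Cebpb* and *Cebpd*, all lower, where 5.08% of all genes tested were called. With any 1 of the other uteri left out it called 0 members, and with control 1, control 3 or *Gp130* ecKO 1, 2 or 3 left out it called 0.012%, 0.0181%, 0.012%, 0.0181% and 0% of all genes tested. The legacy form of the test and the fit with a replicate block also called 0 members, with 0.0422% and 0.0361% of all genes called. With no filter on low counts *Cebpd* was called, with 0.351% of all genes, and with RLE size factors 0 members, with 0.163%. Members without overlap numbered 8 or 9 with 1 uterus left out, against 39.1%, 45.7% and 40.1% of all genes without control 1, 2 or 3, and 36.5%, 42.2% and 46% without *Gp130* ecKO 1, 2 or 3.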

How the data were processed

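RNA-seq of 6 whole uteri was analysed. The authors trimmed reads with fastp 0.23.2, removed ribosomal RNA reads with SortMeRNA, mapped to GRCm39 with STAR 2.7.10a and counted with RSEM 1.3.3, per the methods and the submitters' processing notes. The gene annotation version and strand setting are not given in the sources used here. The deposited expected counts are not normalized. The deposited TPM, which the authors made per transcript length and library depth, served to compare levels between genes, and the deposited FPKM was not used.
Expected counts were rounded, and edgeR 4.0.16 under R 4.3.3 was applied (filterByExpr, 16605 genes kept, TMM, quasi-likelihood test with legacy set to false, Benjamini-Hochberg adjustment over all genes tested). The SE was taken as the absolute log2 fold change over the root of the F statistic. Genes were called at FDR below 0.05 and more than 2-fold change. DESeq2 was version 1.42.0. Permutation tests of single genes used log2(CPM + 0.5). Ratios and sums of TPM were tested by exact permutation over uteri. GENCODE M39 gave symbols and coordinates, and 56017 of 56748 identifiers matched. The analysis was tested on simulated data. The members and lists were chosen with earlier results of these data known. All members are named, and from each pathway list the called genes or otherwise the 2 with the lowest p.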

Additional observations from a re-analysis of the deposited data

How the results depend on the processing

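Of the 120 log2 fold changes of single members under the 12 alternatives, 105 kept both their direction and their side of the FDR threshold, 14 passed the threshold where the quasi-likelihood fit, in which 0 members passed, did not, and 1 changed sign, *Pim2* at 0.0319 without control 1, the highest of its values with 1 uterus left out, the lowest being −0.24. The number of called members was 5 with DESeq2, 5 with the exact test and 1 (*Cebpd*) with no filter on low counts, and it was 0 to 3 with 1 uterus left out at a time. The number of called genes, 26, was 1546 with DESeq2, 1252 with the exact test, 105 with no filter, 7 with the legacy form and 6 with the replicate block, and 0 to 843 with 1 uterus left out. The cause was not tested. The number without overlap, 8 of 10, was 8 or 9 with 1 uterus left out, where 36.5% to 46% of all genes tested did not overlap, and 6 on the TPM scale, where 28.7% did not, and the ratio of PIM sums was 1.04 to 1.22. With the replicate number as a block, 0 members were called. The deviations of same-numbered uteri correlated at 0.10, 0.07 and −0.20 across genes. With 3 uteri in each group, these values cannot decide whether the numbers pair the uteri. Depth was lowest in control 3, and *Pim2* and *Bcl6*, the members with the lowest levels per length, are the least precisely counted there.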
